A study of Mus musculus with 10 samples.

Results

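LPS combined with thapsigargin was compared with no stimulation in mouse dendritic cells grown from bone marrow, and 6 of the 10 arrays of the series carry this comparison. The 2 unstimulated arrays are 1 of wild-type C57BL/6 cells and 1 of Cd14-/- C57BL/6 cells, which lack the LPS co-receptor CD14. The 4 stimulated arrays are 1 for each genotype after 48 h and 1 for each genotype after 60 h with smooth LPS at 1 µg/ml together with 50 nM thapsigargin. Each stimulated array was set against the unstimulated array of its own genotype, which gave 4 differences per gene, and a gene was said to have risen or fallen only when all 4 ran the same way and the test below was passed. All mice were 6 to 8 weeks old, and marrow cells had been grown for 7 to 10 days in medium with GM-CSF, supplied as a tumour cell supernatant, and were used once nearly all carried CD11c. The other 4 arrays of the series received LPS without thapsigargin. The purpose given for the series is a search for genes of cell death that depend on NFAT. No condition was repeated, none of the conditions had thapsigargin alone, and the unstimulated cells were harvested 24 h after plating, so the treatment and the longer time in culture cannot be told apart, and thapsigargin is separable only as an addition to LPS.

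LPS is sensed by TLR4 together with MD-2 and CD14, and it switches on NF-kappaB and interferon regulatory factors, which drive the cytokines, interferon response genes and costimulatory molecules of a maturing dendritic cell. Thapsigargin blocks the SERCA pumps that fill the calcium store of the endoplasmic reticulum. The store empties, cytosolic calcium rises and can activate calcineurin and NFAT, and protein folding in the store fails. The kinase PERK then slows translation through eIF2alpha while raising ATF4 and CHOP, the branch known as the integrated stress response, and IRE1 and ATF6 raise the folding machinery.

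Signals are the linear MAS5 intensities of the authors, scaled to 1 trimmed mean per array, with values under 13.4 raised to that floor before log2 was taken, and 7474 of 12393 genes were bright enough to test. A log2 change is the mean of the differences within the 2 genotypes, ± its standard error from limma, and adjusted p-values are Benjamini-Hochberg values over the 7474 genes. On these 6 arrays RNA integrity numbers were 8.4 to 10 and the Gapdh 3′ to 5′ signal ratio was 0.71 to 0.757. The 3 control probe sets for 18S ribosomal RNA read 7886 to 12656 on the unstimulated and 1426 to 5260 on the stimulated arrays, with no overlap, and their part in the results was not tested. The genotype was plain: Cd14 read 1499 in unstimulated and 17729 and 15538 in stimulated wild-type cells, and under the floor on all 3 CD14-deficient arrays, so that its mean change, 1.73 ± 0.66, did not pass (adjusted p = 0.0532).

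Most genes moved. Of the 7474 genes, 4499 (60.2%) passed the test and ran the same way in all 4 differences, 2418 (32.4%) upward and 2081 (27.8%) downward. The median change of all genes was 0.05 and the median standard error 0.16 on the log2 scale. A change of at least 2-fold in all 4 differences was seen in 657 genes upward (8.79%) and 722 downward (9.66%), and all 1379 were among the genes that passed. Since more than 1 gene in 2 passed, a group of genes is read below against these shares, and the 2-fold counts are given beside the test. Without the wild-type unstimulated array 2988 genes passed and without the CD14-deficient one 2849, because each removal leaves the contrast to the other genotype. A model of all 10 arrays passed 2882.

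Inflammatory cytokines rose strongly, Il6 most among them. Of 21 cytokine genes tested, 16 rose, 14 of them at least 2-fold in every difference, 2 fell and 3 did not pass, and their median change was 2.67. Il6, a cytokine of fever and B-cell help, read 119 in wild-type and 71.2 in CD14-deficient unstimulated cells. With LPS and thapsigargin it read 12192 and 13294 at 48 and 60 h in wild-type cells and 10747 and 11904 in CD14-deficient cells. All 4 stimulated signals thus lay far above both unstimulated ones, and the rise was 7.02 ± 0.14 (130-fold, adjusted p = 5.13e-07). Both chains of IL-12, which steers T cells to the Th1 fate, followed: Il12b went from 221 and 158 to between 5829 and 7331 (5.10 ± 0.17, adjusted p = 2.94e-06), and Il12a from 18.6 and 24.0 to between 446 and 779 (4.86 ± 0.24, adjusted p = 8.73e-06). Il1b rose by 4.40 ± 0.13, and Il23a, whose signal was under the floor on both unstimulated arrays, rose at least 25.9-fold. Csf3, the granulocyte growth factor, rose by 6.06 ± 0.68 (adjusted p = 0.000248), and its stimulated signals ran from 362 in CD14-deficient to 3995 in wild-type cells. Ltb, lymphotoxin beta, fell from 903 and 1025 to between 28.5 and 52.2 (−4.57 ± 0.22). Tnf, often taken as the lead product of LPS, did not pass: it read 788 and 783 unstimulated, 1197 and 1300 in stimulated wild-type cells, and 376 and 358 in stimulated CD14-deficient cells, so that the genotypes lay on either side of the unstimulated level.

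Among chemokines and their receptors more genes rose than fell. Of 23 tested, 13 rose (56.5%, against 32.4% of all genes), 7 fell (30.4%, near the 27.8% of all genes) and 3 did not pass. At least 2-fold in every difference, 11 rose and 3 fell. Without the CD14-deficient unstimulated array 3 fell. Cxcl1, which draws neutrophils, read 133 and 108 unstimulated. Its stimulated signals were 10002 and 11674 in wild-type and 7540 and 9293 in CD14-deficient cells, a rise of 6.32 ± 0.12 (79.6-fold, adjusted p = 5.13e-07) with no overlap. Cxcl9, an interferon-gamma-induced T-cell attractant, was under the floor on both unstimulated arrays and read 208 to 1091 on the stimulated ones, at least 35.1-fold higher. Ccr7, the receptor that takes mature dendritic cells to lymph nodes, was already at 3414 and 2667 and rose to between 6977 and 9547 (1.43 ± 0.17, adjusted p = 0.000329). Ccr2, the receptor for monocyte chemokines, went the other way, from 1322 and 1561 to 6.28 and 8.03 in wild-type and 11.0 and 14.2 in CD14-deficient cells, under the floor on 3 of the 4 stimulated arrays (−6.72 ± 0.21, adjusted p = 1.98e-06). Its ligand Ccl12 fell by 2.88 ± 0.24 and the Th2 chemokine Ccl17 by 1.41 ± 0.11. Ccl2 passed only narrowly, with a fall by 0.54 ± 0.16 (adjusted p = 0.0227), and without the CD14-deficient unstimulated array the fall was 0.22 and did not pass.

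The stretch upstream of Il6 and Cxcl1 is shown because both hold the NF-kappaB sequence, searched as GGG, any 2 bases and TTTCC on both strands and in capitals here, within the 120 bases before the RefSeq start (build GRCm38.p6). That of Il6 lies at chr5:30012994-30013113 and that of Cxcl1 at chr5:90891125-90891244, both on the + strand.
Il6: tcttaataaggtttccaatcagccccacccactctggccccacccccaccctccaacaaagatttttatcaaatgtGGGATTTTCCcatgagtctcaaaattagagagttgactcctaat
Cxcl1: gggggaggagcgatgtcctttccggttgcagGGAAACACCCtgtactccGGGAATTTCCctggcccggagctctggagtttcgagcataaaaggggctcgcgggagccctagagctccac
Promoters of 300 bases (250 before and 50 after the start) were found for 6161 of the tested genes, and 2.13% of these genes had the sequence. Among the listed genes with a promoter it stood in 4 of 16 cytokines, 3 of 14 chemokine genes and 4 of 10 genes of the NF-kappaB family. A match is a description of these letters and shows no binding. The genes of the NF-kappaB family themselves rose in 12 of 13 cases, 5 of them at least 2-fold in every difference, and 7 passed in the model of all 10 arrays. Rel went from 341 and 330 to 2299 and 2330 in wild-type and 3080 and 3317 in CD14-deficient cells (3.02 ± 0.14, adjusted p = 6.13e-06). The inhibitor gene Nfkbib rose by 3.02 ± 0.14, and Tnfaip3, whose product A20 ends NF-kappaB signalling, by 1.95 ± 0.18.

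Genes for sensing LPS showed little common movement. Of 10 tested, 2 rose, 3 fell and 5 did not pass, with a median change of 0.02. Tlr4 read 913 and 739 unstimulated and 810 to 1038 stimulated, within 1 range, and did not pass. Ly96, which encodes MD-2, rose by 0.94 ± 0.12, whereas the adaptor Myd88 fell from 2038 and 2108 to between 507 and 1014 (−1.43 ± 0.22, adjusted p = 0.00115) and Cd180, a brake on TLR4, by 1.68 ± 0.20. Among 11 feedback genes, of the SOCS and phosphatase families and of mRNA decay, 3 rose, 3 fell and 5 did not pass. Without the wild-type 60 h array 5 fell. Dusp16, a phosphatase of JNK, rose by 2.43 ± 0.11, and Zfp36l2, which destabilises mRNA, fell by 1.97 ± 0.23.

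**Figure D1:**
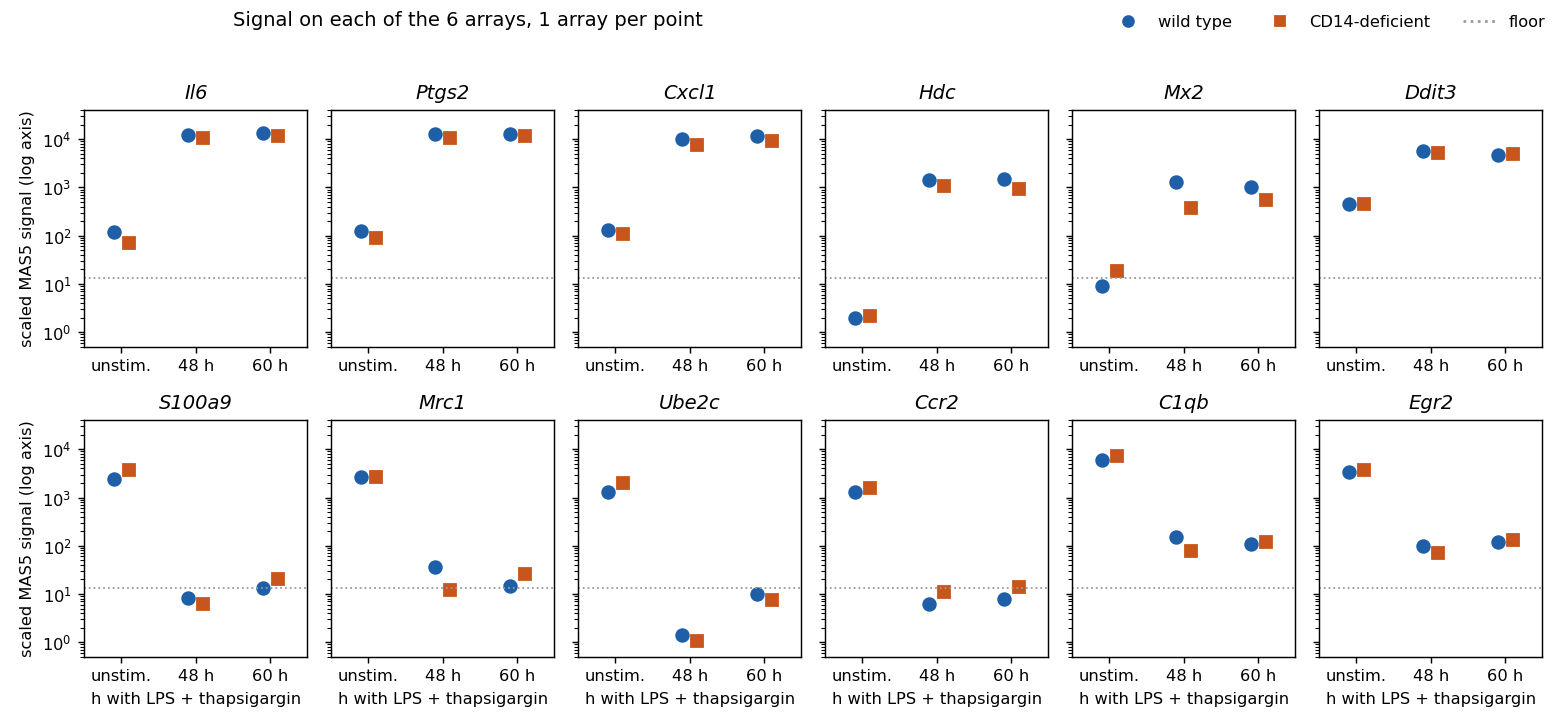
Scaled MAS5 signal (log axis) of 12 genes on each of the 6 arrays, unstimulated and after 48 and 60 h with LPS and thapsigargin; circles are wild-type arrays, squares CD14-deficient arrays, the dotted line the floor of 13.4, and each point 1 array. For all 12 genes the 4 stimulated points lie on the same side of the 2 unstimulated ones, as for Il6 at 10747 to 13294 against 71.2 and 119.

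All 32 interferon response genes tested rose, where 32.4% of all genes did, and 19 of them rose at least 2-fold in every difference against 8.79% of all genes. Their median change was 1.72, and the changes ran from 0.40 for the proteasome subunit Psmb8 to 5.52 for the antiviral GTPase Mx2. Irf7, the factor that amplifies interferon production, read 490 and 386 unstimulated, 8284 and 6203 in stimulated wild-type and 5705 and 4929 in stimulated CD14-deficient cells. The 2 sides did not overlap, and the rise was 3.82 ± 0.14 (14.2-fold, adjusted p = 3.01e-06). Oasl1 went from 104 and 94.8 to between 1399 and 2608 (4.20 ± 0.18, adjusted p = 5.32e-06), and Ifit3 from 351 and 295 to between 2906 and 5862 (3.59 ± 0.16). Rsad2, which makes an antiviral nucleotide, rose by 2.37 ± 0.13 up to 19676, near the highest signals of the arrays (17284 to 21575), where a rise can be compressed. In 30 of the 32 genes, and in 4206 of all 7474, the change was larger in wild-type than in CD14-deficient cells, with list medians of 2.04 and 1.44, but no gene passed the test of the genotype difference given below. Without the wild-type unstimulated array 24 of the 32 passed.

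Ifit1 and Rsad2 are shown because each carries the interferon-stimulated response element, searched as GAAA, any 2 bases and GAAA on both strands and in capitals here, within 120 bases of its RefSeq start on GRCm38.p6. The window of Ifit1 is chr19:34640769-34640888 on the + strand and that of Rsad2 chr12:26456453-26456572 on the − strand.
Ifit1: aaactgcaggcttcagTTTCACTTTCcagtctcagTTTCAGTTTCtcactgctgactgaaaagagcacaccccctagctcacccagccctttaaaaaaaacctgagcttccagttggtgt
Rsad2: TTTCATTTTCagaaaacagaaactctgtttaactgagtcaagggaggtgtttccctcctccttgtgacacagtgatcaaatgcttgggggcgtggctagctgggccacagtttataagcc
Among the interferon genes with a promoter in the table, 14 of 26 held this sequence, as did 4.16% of the tested genes and 3.44% of all promoters. Ifit1 itself rose from 724 and 658 to between 3913 and 9191 (3.08 ± 0.21, adjusted p = 2.92e-05).

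Costimulation genes rose and antigen uptake genes fell. Of 21 genes of costimulation and migration, 15 rose, 14 of them at least 2-fold in every difference, 1 fell and 5 did not pass (median 1.65). Cd86, which binds CD28 on T cells, read 1155 and 1305 unstimulated, 10254 and 8626 in stimulated wild-type and 10990 and 9865 in stimulated CD14-deficient cells (3.01 ± 0.11, 8.06-fold, adjusted p = 3.01e-06), and a second probe set gave 1.64. Neither its groups nor those of Cd40, the receptor for T-cell help (5.67-fold), overlapped. The largest rise of the group was that of Cd70, the ligand of CD27, from 70.9 and 32.6 to between 1302 and 1996 (5.01 ± 0.31, adjusted p = 1.97e-05). Icosl, the ligand of ICOS, was the member that fell (−2.23 ± 0.26). Fscn1, the actin bundler of dendritic processes, did not pass and read 7316 to 9721 on all 6 arrays.

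No gene of MHC class II presentation rose, 5 of 11 fell and 6 did not pass, and without either unstimulated array 2 fell. H2-Ab1, a class II chain, read 7647 and 9649 unstimulated and 5942 to 9822 stimulated, with full overlap. H2-DMa, which loads peptides, fell from 4536 and 5233 to between 1352 and 2613 (−1.50 ± 0.19, adjusted p = 0.000495), and Lgmn, a lysosomal protease that trims antigens, by 1.54 ± 0.16. Among 21 C-type lectin and scavenger receptors 15 fell, 10 of them at least 2-fold in every difference, and 3 rose. Mrc1, the mannose receptor, read 2608 and 2701 unstimulated and 35.8, 14.5, 11.9 and 26.2 stimulated, 1 of these under the floor (−7.00 ± 0.41, 128-fold lower, adjusted p = 1.65e-05). Clec4a2 went from 4284 and 4143 to between 60.5 and 126 (−5.45 ± 0.24). The 3 that rose were Clec4e and Clec4d, receptors for mycobacterial cord factor, by 2.06 ± 0.15 and 1.10 ± 0.09, and the Fc receptor Fcgr3 by 0.30 ± 0.11. The rise of Fcgr3 was lost when any 1 of 4 of the arrays, both unstimulated ones among them, was left out (0.22 to 0.39).

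Mediator and defence genes outside the cytokines included several of the largest changes. Ptgs2, the inducible cyclooxygenase, read 128 and 87.9 unstimulated and between 10642 and 13024 stimulated (6.82 ± 0.11, 113-fold, adjusted p = 2.12e-07; 8.79 on a second probe set), and Ptges, which turns its product into prostaglandin E2, rose by 4.33 ± 0.31. In the same list of 13 genes 6 rose and 5 fell, among the latter Tbxas1, the thromboxane synthase, from 1291 and 1373 to between 77.6 and 152 (−3.53 ± 0.29, adjusted p = 6.93e-05). Hdc, which makes histamine, was under the floor on both unstimulated arrays and read 938 to 1468 on the stimulated ones, at least 89.9-fold higher. Nos2, the inducible nitric oxide synthase, was likewise at least 27.1-fold higher. Of 14 acute phase and iron genes 8 rose and 2 fell. Hamp, the iron hormone hepcidin, went from 24.1 and 21.1 to 1824 and 1886 in wild-type and 907 and 654 in CD14-deficient cells (5.73 ± 0.26, adjusted p = 6.39e-06). Complement genes mostly fell, 8 of 12, all 8 at least 2-fold in every difference. C1qb went from 6032 and 7344 to between 79.4 and 155 (−5.89 ± 0.25, adjusted p = 5.32e-06), C1qa fell by 5.62 ± 0.29 and C1qc by 4.92 ± 0.33, so that all 3 chains of C1q fell together. Cfb and C3ar1 rose, by 2.17 ± 0.38 and 0.80 ± 0.14, but a second probe set for C3ar1 fell by 1.82, and without either unstimulated array Cfb did not pass (2.22 and 2.13).

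Targets of the integrated stress response rose as a group. Of 16 genes tested, 12 rose, 11 of them at least 2-fold in every difference where 8.79% of all genes did, none fell and 4 did not pass (median 1.58), and 12 passed whichever array was left out. Ddit3, which encodes CHOP, the proapoptotic factor of the response, read 465 and 447 unstimulated, 5645 and 4816 in stimulated wild-type and 5108 and 4915 in stimulated CD14-deficient cells. The genotypes were alike in size, and the rise was 3.49 ± 0.10 (11.2-fold, adjusted p = 1.98e-06). Ddit4, an inhibitor of mTORC1, went from 143 and 119 to between 2265 and 2538 (4.20 ± 0.12), and Nupr1, a stress-induced chromatin protein, from 97.0 and 101 to between 1319 and 2510 (4.19 ± 0.22). Atf4 itself rose from 2145 and 2243 to between 9343 and 10770 (2.17 ± 0.10, adjusted p = 6.03e-06). Further down the response were Trib3, a pseudokinase that restrains ATF4 (2.85 ± 0.17), the cystine importer Slc7a11 (2.65 ± 0.16), Ppp1r15a, which brings the phosphatase back to eIF2alpha (2.44 ± 0.11), and asparagine synthetase Asns (1.79 ± 0.18). The kinases upstream did not pass: Eif2ak3, which encodes PERK, changed by 0.05 and Eif2ak2 by 0.03. These rises are against unstimulated cells. Against LPS without thapsigargin, in the model of all 10 arrays, 0 of the 16 genes passed as higher in wild-type cells. In CD14-deficient cells 6 did, where 3.43% of all genes did.

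Nupr1 and Slc7a11 are shown because both hold the C/EBP-ATF response element TGATGNAA (both strands, capitals), the sequence that ATF4 binds with C/EBP partners, within 120 bases of the RefSeq start on GRCm38.p6. Their windows are chr7:126625471-126625590 and chr3:50443614-50443733, both on the − strand.
Nupr1: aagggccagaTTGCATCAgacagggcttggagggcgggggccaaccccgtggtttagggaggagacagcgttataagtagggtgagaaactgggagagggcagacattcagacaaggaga
Slc7a11: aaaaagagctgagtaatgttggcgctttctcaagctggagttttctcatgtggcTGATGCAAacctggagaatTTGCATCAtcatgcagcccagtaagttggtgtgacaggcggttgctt
The element stood in 6 of 16 promoters of the response's genes (Asns, Atf3, Chac1, Nupr1, Slc7a11 and Trib3), in 1 of 24 of the folding genes and in 2.66% of the tested genes.

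Genes of protein folding in the endoplasmic reticulum moved less. Of 29 tested, 13 rose, 4 fell and 12 did not pass (median 0.27), and 3 rose at least 2-fold in every difference. The count was not stable: 4 rose without the wild-type and 7 without the CD14-deficient unstimulated array. Hspa5, the chaperone BiP and the usual marker of this branch, read 11489 and 11868 unstimulated, 18650 and 15503 in stimulated wild-type and 17789 and 14081 in stimulated CD14-deficient cells. These signals are close to the highest on the arrays, and the rise was 0.49 ± 0.13 (1.40-fold, adjusted p = 0.0123), which did not pass without either unstimulated array (0.57 and 0.42). A less bright probe set for Hspa5 went from 6499 and 6093 to between 11210 and 12504, a mean difference of 0.90 with 0.79 to 0.98 in the 4 differences. The 3 with 2-fold rises were Derl3 and Dnajb9, which serve the removal of misfolded proteins, and the oxidase Ero1a. Dnajb9 went from 1723 and 1722 to between 3824 and 4769 (1.34 ± 0.10, adjusted p = 4.43e-05) and Ero1a from 1027 and 1366 to between 3600 and 7273 (2.05 ± 0.27). Derl3 rose by 2.13 ± 0.39, and by 1.59, without passing, when the wild-type unstimulated array was left out. The factors of the other branches were among those that fell: Xbp1 from 9163 and 9923 to between 6371 and 7118 (−0.48 ± 0.09, adjusted p = 0.00303) and Atf6 by 0.65 ± 0.21, and both missed the threshold without the CD14-deficient unstimulated array (−0.40 and −0.42). Atf6 also missed it without the wild-type unstimulated (−0.89) or 48 h (−0.67) array. The arrays measure the total Xbp1 transcript here, and its splicing was not analysed.

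Of 13 heat shock chaperone genes 6 rose (46.2%, against 32.4% of all genes), 5 of them at least 2-fold in every difference. A further 3 fell (23.1%, near the 27.8% of all genes) and 4 did not pass. None fell without either unstimulated array. Hspa1a and Hspa1b, neighbouring genes for nearly identical inducible Hsp70 proteins whose signals may not be separable, rose by 3.63 ± 0.45 and 3.21 ± 0.44. In both, the 60 h signal was above the 48 h signal in each genotype, as for Hspa1a with 686 and 961 in wild-type and 553 and 1680 in CD14-deficient cells. Dnajb1, their cochaperone, rose by 1.68 ± 0.12, but a second probe set gave −0.31. Of 17 genes of tRNA charging and amino acid supply 3 rose and 5 fell, and 0 rose and 2 fell without the wild-type unstimulated array. Among those that fell was Psat1, an enzyme of serine synthesis, by 1.68 ± 0.19 (adjusted p = 0.000256).

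**Figure D2:**
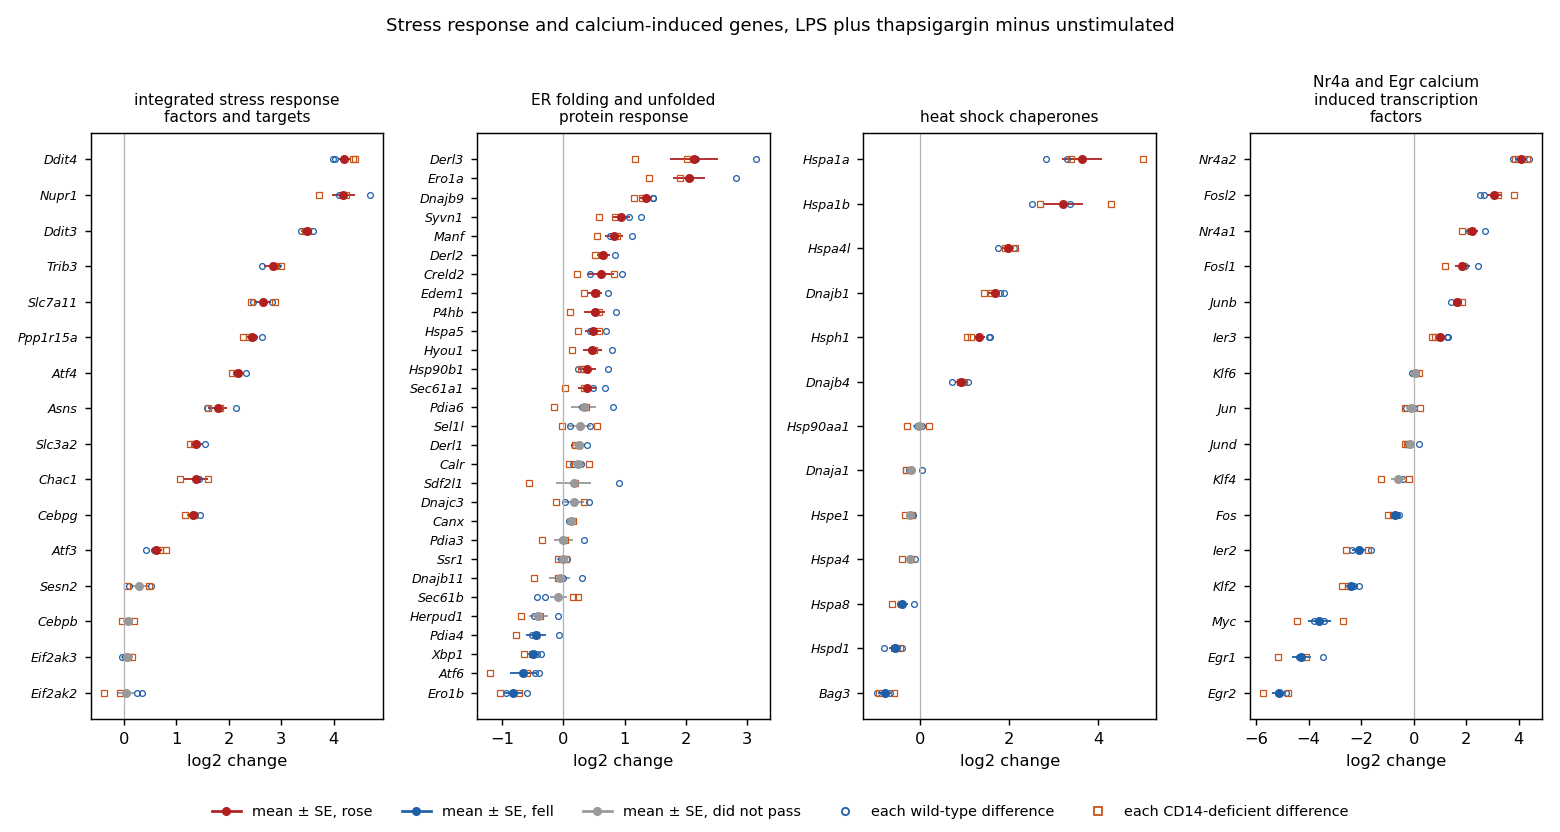
Log2 change, stimulated minus unstimulated, of each tested gene of 4 lists: the integrated stress response, folding in the endoplasmic reticulum, heat shock chaperones and calcium-induced transcription factors. Filled points are means with standard errors (red rose, blue fell, grey did not pass), open circles the 2 wild-type and open squares the 2 CD14-deficient differences; Ddit4, Nupr1 and Ddit3 lie above 3 while Hspa5 lies at 0.49.

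Among genes of the calcium store and its channels, the direct neighbours of the drug's target, none of 14 tested rose, 3 fell and 11 did not pass, with a median of −0.04. Atp2a2, the SERCA2 pump that thapsigargin blocks, read 3967 and 4254 unstimulated, 3847 and 3525 in stimulated wild-type and 2917 and 2998 in stimulated CD14-deficient cells. The fall by 0.32 ± 0.12 passed at the edge of the threshold (adjusted p = 0.04997), and it was lost without the wild-type 60 h array or without any CD14-deficient array, with −0.11 when the unstimulated one of these was left out. The other 3 probe sets for Atp2a2, all dimmer, were lower in all 4 differences, by means of −1.34, −1.03 and −0.55, and the one at −1.34 went from 773 and 665 to between 225 and 321. No more than 2 of the 14 genes fell once any array was left out. Atp2a3, the SERCA3 pump of blood cells, did not pass, and neither did the store sensor Stim1 (−0.01 ± 0.18) or the entry channel Orai1 (−0.23 ± 0.13). Ryr1, the ryanodine receptor channel, fell from 147 and 142 to 9.45, 8.39, 5.73 and 27.7, under the floor on 3 of 4 arrays (−3.17 ± 0.36, adjusted p = 0.000259).

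Among 20 genes listed for calcium, calcineurin and NFAT signalling 6 rose (30%), 7 fell (35%) and 7 did not pass (median −0.04). These shares were near the 32.4% and 27.8% of all genes. Nfatc1 read 448 and 545 unstimulated and 163 to 202 stimulated, a fall by 1.43 ± 0.17 (adjusted p = 0.000338), whereas Nfat5, the NFAT relative that answers to salt and not to calcineurin, rose from 211 and 164 to between 592 and 822 (1.91 ± 0.16, adjusted p = 7.95e-05). Nfatc3 read 407 to 480 on all 6 arrays and did not pass. Rcan1, a calcineurin inhibitor that NFAT induces, went from 310 and 304 to 966 and 1476 in wild-type and 540 and 1297 in CD14-deficient cells (1.70 ± 0.35, adjusted p = 0.00439), and without either unstimulated array it did not pass (1.95 and 1.46). The calcineurin subunits Ppp3ca and Ppp3cb did not pass, and Ppp3cc rose by 1.41 ± 0.18. The list also held Fgr, a Src kinase of myeloid cells, which fell from 793 and 966 to between 22.9 and 52.0 (−4.72 ± 0.23). Of the genes with a second probe set, Dyrk1a and Csnk1a1, kinases that return NFAT to the cytosol, rose by 1.13 and 0.36 on the brighter set and were at −0.70 and −0.57 on the other.

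Calcium-induced transcription factors moved both ways. Of 16 tested, 6 rose and 6 fell, 5 in each direction at least 2-fold in every difference, and 6 rose and 6 fell without either unstimulated array. The orphan receptor Nr4a2 went from 33.5 and 42.0 to 462 and 704 in wild-type and 613 and 827 in CD14-deficient cells (4.09 ± 0.22, 17.0-fold, adjusted p = 1.12e-05). Nr4a1, its relative, rose to between 228 and 436 from signals under 100 (2.22 ± 0.23, adjusted p = 0.000184), and the AP-1 members Fosl2, Fosl1 and Junb by 3.05 ± 0.27, 1.85 ± 0.30 and 1.65 ± 0.12. In contrast Egr2 fell from 3459 and 3700 to 97.0 and 118 in wild-type and 69.3 and 134 in CD14-deficient cells (−5.14 ± 0.27, 35.2-fold lower, adjusted p = 9.83e-06). Egr1 fell by 4.28 ± 0.36, Myc by 3.60 ± 0.44 and Klf2 by 2.40 ± 0.22, with no overlap of the 2 sides in any of them.

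The apoptosis genes that the study is known to have followed up, chosen on these samples and so no independent evidence of a direction, were Nr4a1, Gadd45g, Ddit3 and Tia1. Gadd45g, a growth arrest gene, read 618 and 550 unstimulated, 3267 and 3447 in stimulated wild-type and 3333 and 4154 in stimulated CD14-deficient cells (2.60 ± 0.13, 6.06-fold, adjusted p = 8.45e-06). Tia1, an RNA-binding protein of stress granules, was the one that fell, from 391 and 408 to between 202 and 241 (−0.85 ± 0.15, adjusted p = 0.00206), and its fall did not pass without the CD14-deficient unstimulated array (−0.75). The 3 others rose, and Nr4a1 and Ddit3 are described above.

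Of 8 proapoptotic relatives of Bcl2 tested, 4 rose, 1 fell and 3 did not pass, and none rose 2-fold in every difference on its brightest probe set. Bcl2l11, which encodes BIM, read 733 and 806 unstimulated, 1415 and 1050 in stimulated wild-type and 1733 and 924 in stimulated CD14-deficient cells, higher at 48 than at 60 h in both. Its rise was 0.69 ± 0.25 (adjusted p = 0.0445) and did not pass without either unstimulated array (0.73 and 0.65) or without the wild-type 48 h array (0.59). The 4 dimmer or similar probe sets for Bcl2l11 disagreed: one went from 104 and 94.7 to between 613 and 947 (2.93), the others gave 2.34, 0.84 and 0.18, and 3 of the 4 were higher in all 4 differences. The transcript forms each reads were not analysed. Bbc3 and Pmaip1 were each lost without any 1 of 4 arrays, with 0.23 and 0.15 without the CD14-deficient unstimulated one, and Bnip3 was lost without the wild-type unstimulated one, with 0.33. Over the arrays left out 1 to 3 of the 8 rose, and without the CD14-deficient unstimulated array 1 of the 8 rose. Bok fell from 190 and 240 to between 17.6 and 51.0 (−2.81 ± 0.43, adjusted p = 0.00114). Survival genes rose in 10 of 14 cases, 4 of them at least 2-fold in every difference, and Xiap, a caspase inhibitor, fell by 0.37 ± 0.12, which did not pass without either unstimulated or the wild-type 60 h array (−0.46 to −0.27). In the model of all 10 arrays 5 survival genes rose. Cflar, which blocks caspase 8, went from 357 and 300 to between 1350 and 2174 (2.41 ± 0.15, adjusted p = 2.26e-05), while its other probe sets were higher in all 4 differences by means of 1.40, 0.69 and 0.48. The kinase gene Pim3 rose by 3.16 ± 0.17 and the adaptor Traf1 by 2.13 ± 0.10. Mcl1 read 6524 to 7519 on all 6 arrays and did not pass.

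For death receptor and caspase genes the counts stayed near those of all genes (32.4% upward and 27.8% downward). Of 10 death receptor genes 4 rose and 2 fell, and of 17 caspases and execution factors 4 rose, 5 fell and 8 did not pass. Without the wild-type unstimulated array 2 death receptor genes rose and 3 caspase genes fell, and without the CD14-deficient one 2 caspase genes fell. Casp4, the caspase that senses intracellular LPS, was the large rise, from 424 and 323 to 4526 and 3209 in wild-type and 2649 and 2475 in CD14-deficient cells (3.08 ± 0.15, 8.44-fold, adjusted p = 7.84e-06). Pycard, the adaptor of inflammasomes, fell from 6488 and 7048 to between 1747 and 2046 (−1.82 ± 0.09, adjusted p = 7.84e-06), and Ripk3 of the necroptosis pathway by 1.38 ± 0.16. The receptor gene Fas rose by 0.57 ± 0.20 (adjusted p = 0.0419), a rise that was lost when any 1 of 5 of the arrays was left out (0.37 to 0.77). Genes of the p53 and damage response rose in 12 of 18 cases (66.7%, against 32.4% of all genes), with a median of 0.94. Of these 8 rose at least 2-fold in every difference (44.4%, against 8.79% of all genes). In the same list 2 fell and 4 did not pass. The larger fall was that of Btg2, by 0.97, and a second probe set gave −1.40. Gadd45b and Gadd45a, relatives of Gadd45g, rose by 2.94 ± 0.16 (3.29 and 1.29 on other probe sets) and 2.71 ± 0.19, Perp, a p53 target of the cell membrane, by 2.35 ± 0.21, and Mdm2, which degrades p53, by 1.40 ± 0.13.

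**Figure D3:**
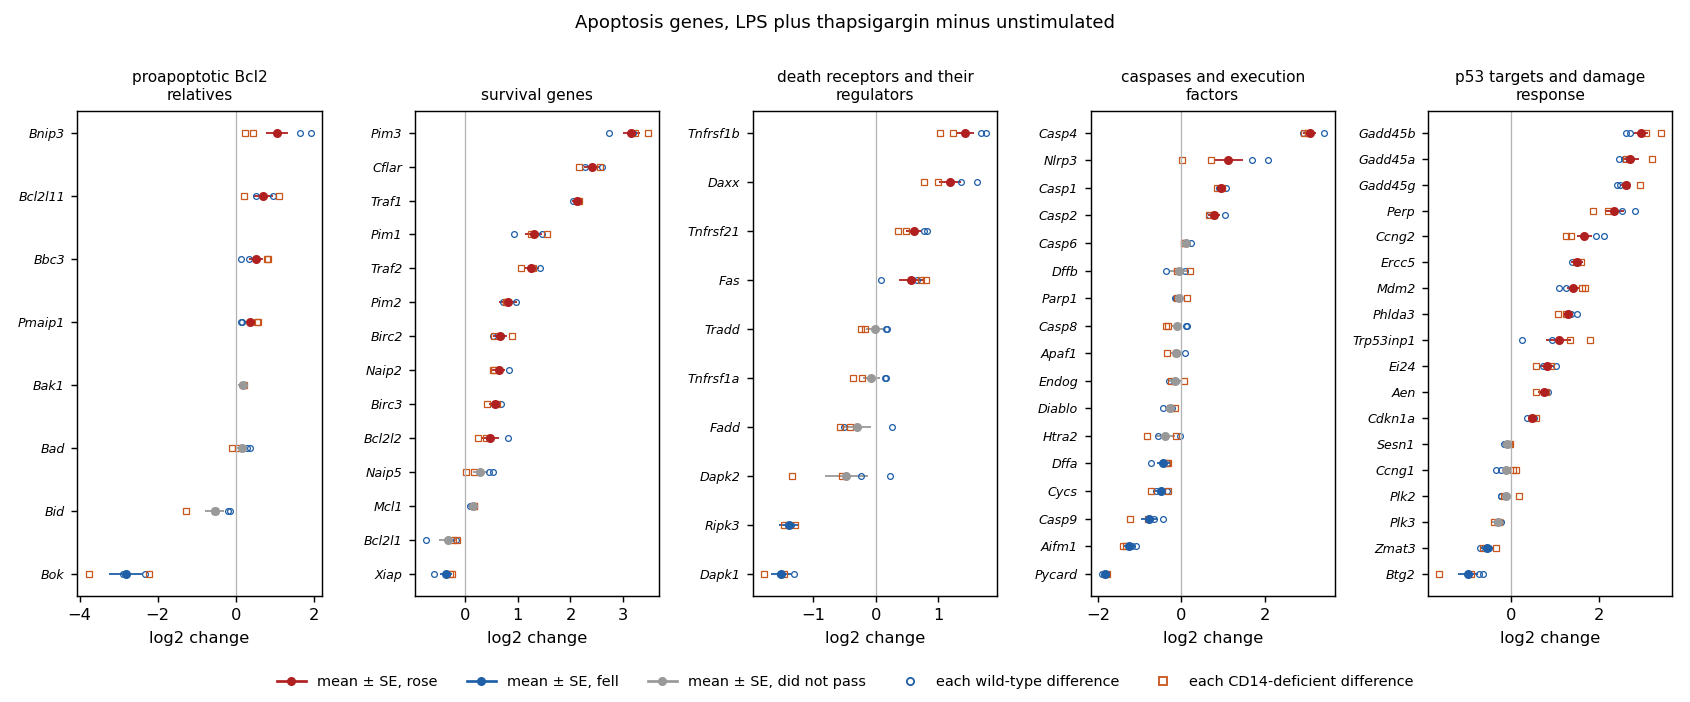
Log2 change, stimulated minus unstimulated, of each tested gene of 5 apoptosis lists, with means and standard errors as filled points (red rose, blue fell, grey did not pass), the wild-type differences as open circles and the CD14-deficient ones as open squares. Pim3, Casp4 and the Gadd45 genes lie between 2.60 and 3.16, Bcl2l11 at 0.69 and Bok at −2.81.

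Mitosis genes had the lowest median of all lists. Of 25 mitosis genes tested, 24 fell, each at least 2-fold in every difference where 9.66% of all genes did, and the median change was −3.79. Ube2c, a ubiquitin carrier of the anaphase-promoting complex, read 1312 and 2034 unstimulated and was under the floor on all 4 stimulated arrays, at least 122-fold lower (adjusted p = 3.01e-06). Mki67, the proliferation marker, went from 1366 and 1769 to 62.4 and 30.5 in wild-type and 52.0 and 55.3 in CD14-deficient cells (−5.01 ± 0.28). The exception was Cenpa, the centromeric histone, which rose from 898 and 1036 to between 1941 and 3319 (1.38 ± 0.13, adjusted p = 0.00012). All 27 DNA replication genes fell, 21 of them at least 2-fold in every difference (median −2.47). Rrm2, which makes deoxynucleotides, went from 2591 and 2471 to between 23.0 and 39.3 (−6.47 ± 0.26, adjusted p = 4.76e-06).

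Ube2c and Mki67 are shown because their starts carry the cell cycle homology region TTTGAA (both strands, capitals), a site of repression outside the G2 and M phases, within 120 bases upstream on GRCm38.p6. Ube2c lies at chr2:164769809-164769928 on the + strand and Mki67 at chr7:135716380-135716499 on the − strand.
Ube2c: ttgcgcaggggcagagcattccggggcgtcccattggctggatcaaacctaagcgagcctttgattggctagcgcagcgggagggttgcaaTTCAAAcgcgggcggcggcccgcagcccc
Mki67: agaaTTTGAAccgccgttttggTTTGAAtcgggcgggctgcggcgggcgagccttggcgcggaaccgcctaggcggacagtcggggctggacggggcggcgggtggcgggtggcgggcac
The sequence stood in 17 of 21 promoters of the mitosis genes, Cenpa among them, in 3 of 23 of the replication genes and in 14% of the tested genes.

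Metabolic lists differed. Of 20 genes of sterol and fatty acid synthesis 14 fell, 6 at least 2-fold in every difference (median −0.86), and 9 fell without the CD14-deficient unstimulated array. Dhcr7, the last step of cholesterol synthesis, went from 748 and 955 to between 124 and 168 (−2.58 ± 0.15, adjusted p = 1.52e-05) and Fasn, the fatty acid synthase, from 961 and 1354 to between 212 and 255 (−2.34 ± 0.18), while the cholesterol exporter Abca1 rose by 1.03 ± 0.15. Of 34 oxidative phosphorylation subunits 16 fell, 3 rose and 15 did not pass, with 1 of them, Sdhb (−1.20 ± 0.09), 2-fold lower in every difference. Without the wild-type unstimulated array 7 and without the CD14-deficient one 5 of these subunits fell. Lysosomal genes fell in 12 of 24 cases, in 6 without the CD14-deficient and 8 without the wild-type unstimulated array, with Gusb the largest fall, from 5453 and 5260 to between 323 and 918 (−3.23 ± 0.35, and −1.81 on a second probe set). Ribosomal proteins did not pass in 21 of 29 cases and proteasome subunits in 22 of 33. Glycolysis and hypoxia genes rose in 6 of 19 cases (31.6%, near the 32.4% of all genes), and in 3 without the wild-type unstimulated array. Vegfa, the vessel growth factor, was among those that rose, from 207 and 323 to between 1872 and 3040 (3.33 ± 0.16, adjusted p = 7.38e-06). The Nrf2 target list rose in 9 of 16 cases, 3 of them at least 2-fold in every difference, and in 3 cases in the model of all 10 arrays.

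**Figure D4:**
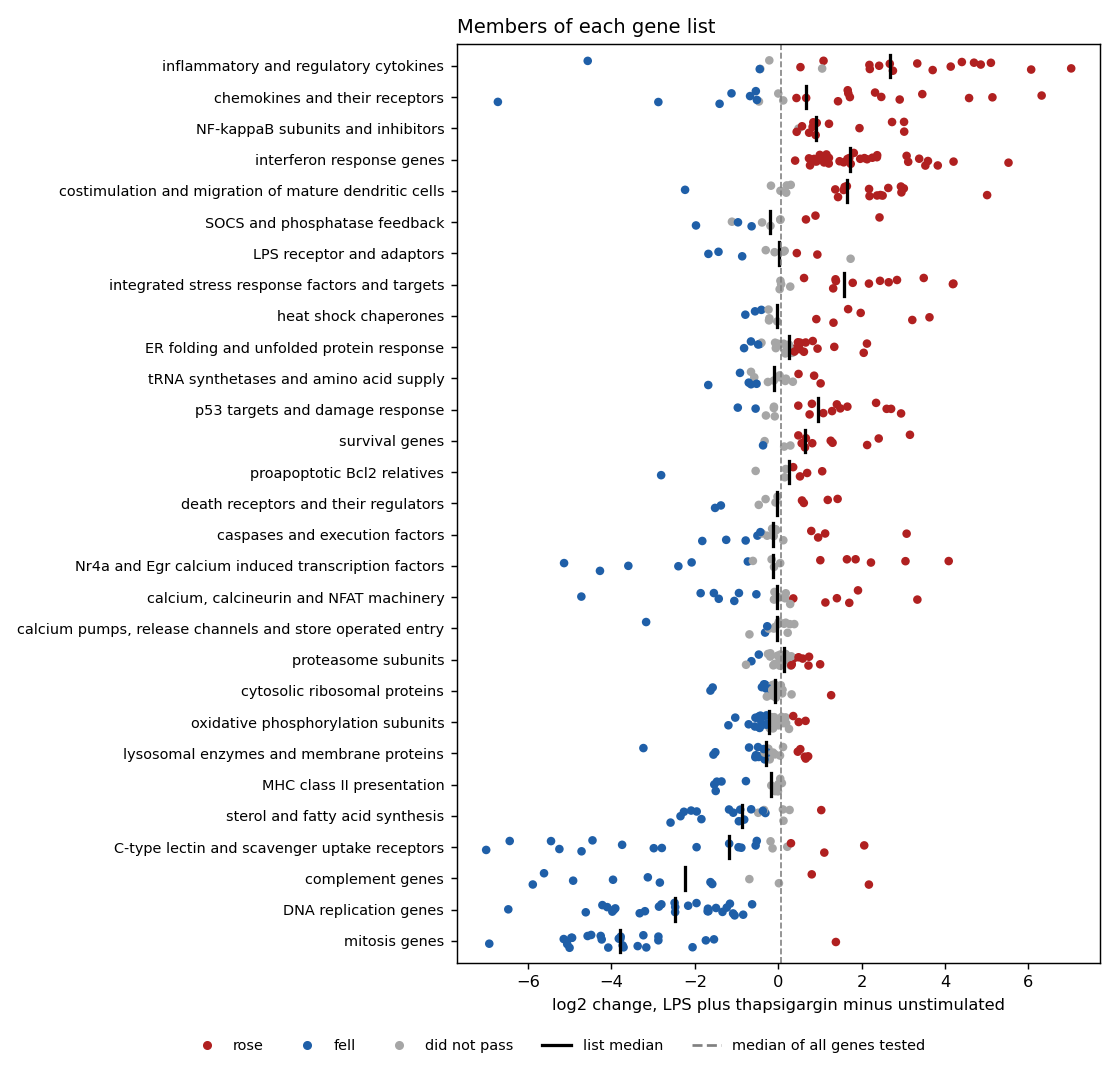
Log2 change, stimulated minus unstimulated, of every tested member of 29 gene lists, 1 point per gene, coloured by the test (red rose, blue fell, grey did not pass), with the median of each list as a bar and the median of all tested genes, 0.05, as a dashed line. Cytokine and interferon lists lie to the right with medians of 2.67 and 1.72, and mitosis and replication lists to the left with −3.79 and −2.47.

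The labelled cell type was checked against marker genes. The summed signal of 15 dendritic cell markers was 31952 to 35185 unstimulated and 30515 to 37784 stimulated, with overlap, although Itgax, which encodes CD11c, fell from 7440 and 7838 to between 750 and 1017 (−3.13 ± 0.16, adjusted p = 8.23e-06) and Irf8 rose by 2.80 ± 0.20 (1.02 on a second probe set). Of these 15 genes 8 fell, 7 of them at least 2-fold in every difference, 4 rose and 3 did not pass, with a median change of −0.73. Without either unstimulated array 2 rose and 6 fell. Markers of macrophages were also present, with 15 genes summing to 70193 to 78220 unstimulated and 42284 to 53345 stimulated. Of 13 tested, 10 fell (5 in the model of all 10 arrays), among them Mrc1 and the C1q genes described above. Of the rest 1 rose (0 in that model) and 2 did not pass. The macrophage marker that rose was Adgre1, from 2695 and 2650 to between 3830 and 4214 (0.61). The 11 neutrophil markers summed to 17773 to 18417 unstimulated and 5129 to 8182 stimulated. Of 6 neutrophil markers tested, 4 fell, 1 rose and 1 did not pass. The one that rose was Lcn2, from 257 and 373 to between 2532 and 4011 (3.46). S100a9, a calcium-binding protein of granulocytes and monocytes, read 2410 and 3692 unstimulated and 8.39, 13.1, 6.21 and 20.0 stimulated, 3 of these under the floor (−7.65 ± 0.24, adjusted p = 1.98e-06). It was the largest fall on the scale with the floor, and with no floor it stood at −8.11 against −8.97 for Ube2c. The part of such markers in the changes of other genes was not tested. The 10 mast cell and basophil markers summed to 490 to 872 unstimulated and 1491 to 2016 stimulated. Hdc was the main part of the stimulated sums (938 to 1468) and was under the floor on both unstimulated arrays. Of 4 tested, 1 rose, Hdc, 1 fell, Cpa3 (−2.36), and 2 did not pass. Cpa3 read 144 and 52.6 unstimulated and 5.28 to 22.5 stimulated. Ms4a2, a chain of the IgE receptor, was under the floor on all 6 arrays. The 8 B-cell markers summed to 1938 to 2102 unstimulated and 2380 to 3110 stimulated, the 8 T and NK cell markers to 126 to 160 and 73.0 to 88.5, both without overlap, and the 5 erythroid markers to 76.0 to 112 and 64.1 to 103. Most of the B-cell sum was Blnk, at 1728 in wild-type and 1545 in CD14-deficient unstimulated cells and 2182 to 2865 in stimulated cells. Of 3 B-cell genes bright enough to test 1 rose, Blnk (0.56), and 1 fell, Ighm (−1.24). No T, NK or erythroid marker was bright enough. Among the defining members, the lymphocyte genes Cd4, Ncr1, Gzmb and Ebf1, the collagens Col1a1 and Col3a1 and the erythroid genes Hba-a1 and Alas2 were under the floor on all 6. In such bulk RNA fewer cells of a type and less of its RNA per cell cannot be told apart.

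No tested gene passed the test of the genotype difference in limma (0% of 7474, 283 at an unadjusted p under 0.05, and 0 in a model of all 10 arrays), and that test had 2 residual degrees of freedom. With no filter on dim genes 421 of 12393 passed, so the count of 0 depends on that filter. All 4499 genes that passed the main test changed in the same direction in both genotypes, which the rule of 4 like differences fixes. Cd14 itself was 3.47 ± 0.29 larger in wild-type cells (adjusted p = 0.68), since its signal was under the floor in CD14-deficient cells throughout. Beside it the leading differences toward wild type on the scale with the floor were those of Cysltr2, a leukotriene receptor, at 3.76 ± 0.50, and Sncg, gamma-synuclein, at 3.54 ± 0.36. Sncg read 178 and 136 in stimulated wild-type cells and was under the floor on the other 4 arrays, so its value is set by the floor. Cysltr2 read 16.6 in unstimulated wild-type cells, under the floor in unstimulated CD14-deficient cells, 300 and 183 in stimulated wild-type and 14.4 and 7.99 in stimulated CD14-deficient cells. After Krtap12-1, a dim hair keratin-associated gene (3.26 ± 1.40), came Ccl8, a monocyte chemokine (2.80 ± 0.37), and Csf3 (2.78 ± 1.07), and Ccl8 rose to 393 and 426 in wild-type against 79.8 and 100.2 in CD14-deficient cells. In the other direction Camk4, a calcium-dependent kinase, was under the floor on both unstimulated arrays and read 71.0 and 52.8 in stimulated wild-type against 307 and 291 in stimulated CD14-deficient cells (−2.29 ± 0.39, adjusted p = 0.951). Its mean rise was at least 10.1-fold, while 2 dimmer probe sets for Camk4 gave −0.30 and −0.56.

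**Figure D5:**
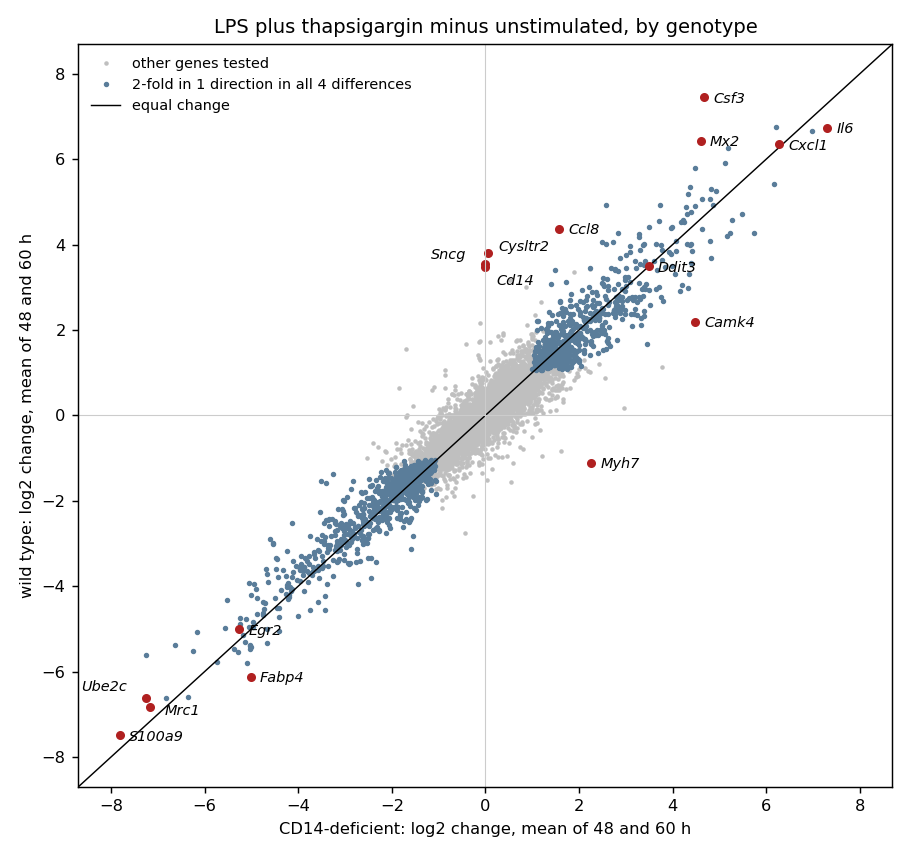
Log2 change, stimulated minus unstimulated, in CD14-deficient (x axis) and wild-type cells (y axis) for each of the 7474 tested genes, as the mean of 48 and 60 h; blue points changed at least 2-fold in 1 direction in all 4 differences, the line marks equal change and red points are named genes. Most genes lie along the line, Ddit3 at 3.49 on both axes, while Csf3, Cysltr2, Sncg and Cd14 lie above it and Camk4 and Myh7 below.

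The 48 h and 60 h arrays differed far less from each other than from unstimulated cells. In wild-type cells 115 genes (1.54%) were at least 2-fold apart between the times, in CD14-deficient cells 189 (2.53%), and 36 were so in both in 1 direction, 27 higher and 9 lower at 60 h, against 1 in opposite directions. With 1 array per time these are descriptions with no test. Ccl20, a chemokine of epithelial inflammation, read 8.44 at 48 h and 109 at 60 h in wild-type cells and 15.2 and 170 in CD14-deficient cells. Sox4, a transcription factor, read 203 and 688 in wild-type and 143 and 649 in CD14-deficient cells, the unstimulated level of 365 and 297 lying between. Bmp2, a growth factor of the TGF-beta family, went from 98.7 to 334 and from 22.5 to 176. Lower at 60 h were Chil3, a chitinase-like protein of alternatively activated cells, with 3985 and 1611 in wild-type and 7686 and 3529 in CD14-deficient cells, and Plet1, with 1006 and 429, and 1090 and 354. Plet1 had read 8218 and 9290 unstimulated.

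How the stimulated arrays differ from LPS without thapsigargin was tested in a model of all 10 arrays, which shares the 4 stimulated arrays with the comparison above. In wild-type cells 4 of the 7474 genes passed (0.0535%, 770 at an unadjusted p under 0.05): Gpr35 was higher with thapsigargin, and Hp, Tm4sf1 and U90926 were lower. In CD14-deficient cells 495 passed (6.62%), 256 higher (3.43%) and 239 lower (3.2%). Ddit3 read 479 and 1102 in CD14-deficient cells with LPS alone against 5108 and 4915 with thapsigargin (2.79 ± 0.37 higher, adjusted p = 0.0184). In wild-type cells it read 3545 and 3223 with LPS alone against 5645 and 4816 (0.63 ± 0.37, adjusted p = 0.592). Gadd45g was 3.37 ± 0.31 higher with thapsigargin in CD14-deficient cells (adjusted p = 0.0109), Nr4a1 3.18 ± 0.45 (adjusted p = 0.0202) and Hspa5 1.03 ± 0.12 (adjusted p = 0.0165), and none of these passed in wild-type cells (0.25, 0.31 and 0.49). Of the 32 interferon genes 15 passed as higher with thapsigargin when CD14 was missing and 0 in the wild type. Il6 did not pass in either (0.87 ± 0.34 and 0.17 ± 0.34), and neither did Derl3, at 2.56 ± 0.43 in wild-type cells and 1.72 ± 0.43 in those without CD14. The count in wild-type cells was 397 when only the 4 stimulated wild-type arrays were fitted, and that in CD14-deficient cells 174. Between 48 and 60 h with LPS alone 491 genes were at least 2-fold apart in wild-type and 1297 in CD14-deficient cells, against 115 and 189 with thapsigargin. Whether the genotypes differed in this respect was not tested.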

How the data were processed

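RNA of 10 cultures was hybridised to single-colour Affymetrix mouse arrays, 1 per condition, per the labels. The deposited values are linear MAS5 intensities made by the authors, per the submitters' processing notes; the sources used here do not state the MAS5 version or its target. Each array was multiplied to a common 2% trimmed mean of 509 (deposited means 444 to 553), floored at the pooled 25th percentile, 13.4, and log2 was taken. The platform annotation names 1 gene for 20393 of 22690 probe sets, several for 691 and none for 1606. Each gene was represented by its brightest probe set on average, and 7474 genes above the pooled median, 99.2, on at least 2 arrays were tested. Ryr1, Ccr2 and Mrc1 were above it only on the 2 unstimulated arrays, and Hdc, Gja1 and Cxcl9 only on arrays with LPS. Such genes enter through the group where they are high, and their p-values and counts carry that selection.

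The main test was limma 3.58.1 (R 4.3.3) on the 6 arrays, with terms for genotype and treatment, moderated variances with an intensity trend, two-sided p-values, a threshold of 0.05 and like direction in all 4 differences. Its 3 residual degrees of freedom hold the spread between 48 and 60 h and between genotypes, not between cultures or mice, and the 2 differences of a genotype share its unstimulated array. Precision is limited by how few arrays there are. The code was tested on simulated data.

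Members and gene lists were chosen with earlier results of these data known. The 265 named genes are the 12 largest rises and falls, up to 4 of each per list, members against their list's majority, some genes fixed by name, and leading genotype and time differences. The text describes only a part of them and leaves out, for instance, Asgr2 (−6.44). It adds further list members as illustrations chosen after their values were seen. Of the listed genes, 81 entries too dim to test were left out. The alternatives were other scaling, filters, floors, models and probe sets, and leaving out each array. Promoter sequences are RefSeq's (GRCm38.p6).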

Additional observations from a re-analysis of the deposited data

Results flagged for a closer look

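In 4 of the named genes, both wild-type differences ran one way and both CD14-deficient differences the other. The difference between the genotypes was tested by the interaction in limma, and none of the 4 passed (Benjamini-Hochberg adjusted p from 0.68 to 0.999). Krtap12-1, a hair keratin-associated protein, had a response 3.26 larger in wild-type cells on the log2 scale. It read 10.6 in unstimulated and 33.2 and 46.8 in stimulated wild-type cells, and 99.9, then 70.2 and 9.57 in CD14-deficient cells, and its signal was above the filter value of 99.2 on 1 of these 6 arrays. Myh7, a cardiac myosin heavy chain, had a response of −3.37, wild type minus CD14-deficient, with 41.1 against 18.7 and 19.3 in wild-type and 26.4 against 113 and 143 in CD14-deficient cells. Calcb, a calcitonin-related peptide, gave −2.45, with 306 against 176 and 167 in wild-type and 115 against 399 and 311 in CD14-deficient cells. Atp2a3, the SERCA3 pump, gave 0.593, with 374 against 429 and 722 in wild-type and 493 against 488 and 486 in CD14-deficient cells, where the change was −0.02.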

How the results depend on the processing

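The 4499 genes became 2962 under the stricter filter, 2882 with all 10 arrays in 1 model, and 1379 when 2-fold in all 4 differences was also asked (the last chosen after seeing the data). Leaving out 1 array each time gave 2849 to 4401, the lowest without the CD14-deficient unstimulated array and 2988 without the wild-type one. The other alternatives moved the count by under 1.5 times. No gene that passed both in the main setting and under an alternative changed direction, except 131 of 3499 with the second probe set. In that setting a gene with only 1 probe set was read on the same set again and could not reverse. The share among genes with a true second probe set is thus higher than 131 of 3499 and was not counted. The same limit applies to the named genes below. The 2-fold count was 839 under the stricter filter. The genotype difference gave 421 genes with no filter and 0 under the other alternatives. For thapsigargin under LPS the wild-type count of 4 was 17 on deposited signals without scaling, 7 with no filter and 397 on the genotype's 4 arrays alone, and the CD14-deficient count of 495 was 153 with no filter and 174 on its 4 arrays alone. The second probe set reversed Dnajb1 (−0.31), Dyrk1a (−0.70), Csnk1a1 (−0.57), Lamp2 (−0.73), Psmc6 (−0.88), Psme3 (−0.054) and C3ar1 (−1.82), and Myh7, at 0.58 with all 6 arrays, was −1.11 without the CD14-deficient and 2.26 without the wild-type unstimulated array. Of 265 named genes 160 kept direction and side of the threshold under all 16 alternatives that gave gene values. The median of all genes was 0.04 without scaling and 0.08 after quantile normalization. The cause of these shifts was not tested. No paired analysis was possible because each condition has 1 array and no replicate number; the genotype term already sets each array against its own genotype, and a further time term gave 4666 genes. Signals near the floor set only bounds.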

Other observations

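Some of the largest rises belonged to none of the lists. Sdcbp2, syntenin-2, a membrane scaffold protein, read 37.7 and 35.2 unstimulated, 1777 and 1452 in stimulated wild-type and 2764 and 2311 in stimulated CD14-deficient cells (5.79 ± 0.20, adjusted p = 3.01e-06 in limma). Gja1, connexin 43 of gap junctions, was under the floor on both unstimulated arrays and read 386 to 969 on the stimulated ones, at least 45.6-fold higher. Vnn3, a vanin of the pantetheinase family, went from 16.5 and 16.9 to between 416 and 690 (5.10 ± 0.22, adjusted p = 5.76e-06). Among the falls outside the lists, Fabp4, a fatty acid carrier of macrophages and fat cells, went from 4382 and 5694 to 64.0 and 61.5 in wild-type and 156 and 198 in CD14-deficient cells (−5.57 ± 0.25, adjusted p = 6.37e-06). Fcrls, an Fc receptor-like gene, fell by 6.00 ± 0.33 and Pclaf, a PCNA-binding factor, by 5.76 ± 0.25. Of 4 stromal marker genes tested 3 rose and 1 fell, and the other 5 stromal markers were too dim to test. The 3 that rose, Dcn, Lum and Thy1, were under the filter value on both unstimulated arrays. Lum was above it only on arrays with LPS alone. These 3 genes thus entered the test through arrays with LPS, and the count of 3 rises carries that selection. The summed signal of all 9 stromal markers was 1812 to 2398 unstimulated and 751 to 989 stimulated. The gene that fell was Fn1 (−2.04), which made up most of the unstimulated sum. It read 1749 and 2276 unstimulated and 338 to 609 stimulated. Decorin and lumican, matrix genes among those that rose, were under the floor on both unstimulated arrays and at least 8.55-fold (Dcn) and 6.57-fold (Lum) higher on the stimulated ones, while Col1a1 and Col3a1 were under the floor on all 6 arrays.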
